A study of Mus musculus with 12 samples.

Results

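Interneuron markers of the mouse striatum were followed through repeated morphine with and without the histone deacetylase inhibitor sodium butyrate. The set holds 8 genes, each taken as the row of the deposited table whose only gene symbol was that gene. Each gene had 1 probe set (the group of array probes read as one value), so the set is 8 of the 21780 probe sets with a single gene symbol and of 28815 rows in all. Of the 8 genes, 4 mark cholinergic interneurons (Chat, Slc5a7, Slc18a3 and Lhx8) and 4 mark GABA interneurons (Sst, Npy, Pvalb and Nos1). None of the 8 passed the test in any comparison of the 3 groups. Npy had the lowest p-value. It was below every saline array in all 6 morphine-treated arrays, as were 1.26% of all probe sets. The highest treated array was at -0.124 on the log2 scale and the lowest saline array at -0.113. The mean difference of Npy from saline was -0.27 after morphine and -0.16 after butyrate and morphine, and it missed the threshold after adjustment.

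Striatal tissue came from male Swiss-Albino mice aged 2 months, and every Affymetrix Mouse Gene 1.0 ST array carried a pool of RNA from 4 animals. The saline group (6 arrays) received vehicle with vehicle during induction. The morphine group (3 arrays) received vehicle followed by morphine at 20 mg/kg, and the butyrate-morphine group (3 arrays) received sodium butyrate at 300 mg/kg followed by the same morphine dose, in 6 trials on alternate days. A challenge injection followed 7 days after the last trial, and RNA was taken 1 h later. Both treated groups received morphine at the challenge. For the saline group the labels disagree, since the sample sources give a saline challenge and the protocol gives every animal morphine, so the saline contrasts may include the acute effect of the last morphine dose or may not.

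The striatum is built mostly of medium spiny projection neurons, and interneurons are a small minority of its cells. Cholinergic interneurons are large, tonically firing cells that supply the striatum with acetylcholine. GABA interneurons include fast-spiking cells that contain parvalbumin and cells that release somatostatin, neuropeptide Y and nitric oxide. Choline acetyltransferase (Chat) makes acetylcholine from choline, the transporter Slc5a7 brings choline back into the terminal, and Slc18a3 loads acetylcholine into vesicles. Lhx8 is a LIM homeobox factor needed for the development of forebrain cholinergic neurons. Because whole tissue was measured, fewer interneurons and less RNA per interneuron cannot be told apart in these values.

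The deposited values are log differences from a baseline, read here as log2, although the base is not stated. Saline arrays came as mirror images, 1 with 2, 3 with 4 and 5 with 6 (sums at most 1e-06 in size). Every gene therefore has a saline mean of 0, and only 3 of the 6 saline values of a gene are free to vary. Since centring took away each gene's own level, the arrays could not be checked for striatal or interneuron identity by the height of marker genes. Levels of different genes are not compared beyond a coarse class. The rounding of the stored values places Sst, Npy and Pvalb at 8 to 16, and Nos1 and the 4 cholinergic markers at 4 to 8. Array medians over the 21780 probe sets ran from -0.0153 to 0.0136. The SD over the same probe sets was 0.052 to 0.0845 in the saline arrays and 0.112 to 0.151 in the treated arrays. Single treated arrays outside a gene's saline range, as counted below, are therefore not a sign of change by themselves. Their share over all probe sets was not counted. All 9 choroid plexus markers measured rose after morphine and 8 of 9 after butyrate-morphine, beside 2.45% and 2.35% of all probe sets called. Their mean was 0.869 to 1.44 in the 6 treated arrays against -0.127 to 0.127 in saline. The part of that tissue in the values below was not tested.

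Among the cholinergic markers, Chat showed the smallest departures. Its log2 difference was -0.122, 0.010 and -0.013 in morphine arrays 1 to 3 and -0.043, 0.034 and 0.062 in butyrate-morphine arrays 1 to 3, against -0.167 to 0.167 in saline. All 6 treated arrays therefore lay within the saline range. The morphine mean was -0.042 ± 0.071 (SD, n = 3), and its 95% interval against saline ran from -0.17 to 0.085, a fold of 0.890 to 1.06. The butyrate-morphine mean was 0.018 ± 0.054, with an interval of -0.11 to 0.14.

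Slc18a3 lies within the Chat gene in the RefSeq table, an arrangement known as the cholinergic gene locus. Its values were -0.177, 0.017 and -0.136 in the morphine arrays and -0.084, -0.211 and -0.092 in the butyrate-morphine arrays, with saline arrays from -0.161 to 0.161. It was below 0 in 5 of 6 treated arrays, but only 2 of them lay below the lowest saline array. The difference from saline was -0.099 after morphine (adjusted p = 0.591) and -0.13 after butyrate-morphine (adjusted p = 0.403, limma with Benjamini-Hochberg adjustment over all 21780 probe sets, as for every adjusted p below). Averaged over both treated groups it was -0.11, with an interval of -0.24 to 0.016. Chat and Slc18a3 shared a locus but their group means after butyrate-morphine had opposite signs, and neither passed.

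Slc5a7 spread most among the cholinergic markers after morphine. It was at -0.086, 0.286 and 0.192 in morphine arrays 1 to 3 and at 0.105, -0.034 and -0.014 in butyrate-morphine arrays 1 to 3, while saline ran from -0.150 to 0.150. Morphine arrays 2 and 3 were above every saline array and morphine array 1 was not. The morphine difference was 0.13 ± 0.077 (SE), with an interval of -0.036 to 0.30 and an adjusted p of 0.465. Leaving out morphine array 1 gave 0.24 (adjusted p = 0.0683), and leaving out morphine array 2 gave 0.053 (adjusted p = 0.80).

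As for Slc5a7, Lhx8 was below 0 in morphine array 1 and above 0 in morphine arrays 2 and 3, at -0.087, 0.116 and 0.222 after morphine and -0.057, -0.054 and 0.028 after butyrate-morphine. Its saline arrays were the tightest of the 8 genes, from -0.036 to 0.036, so that 5 of 6 treated arrays fell outside them, 2 above and 3 below. The morphine mean was 0.084 ± 0.16 (SD, n = 3) and the adjusted p was 0.515. Leaving out morphine array 1 gave a difference of 0.17, which passed (adjusted p = 0.0371). It was 0.014 with morphine array 3 out, so the size rested on single pools.

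**Figure D1:**
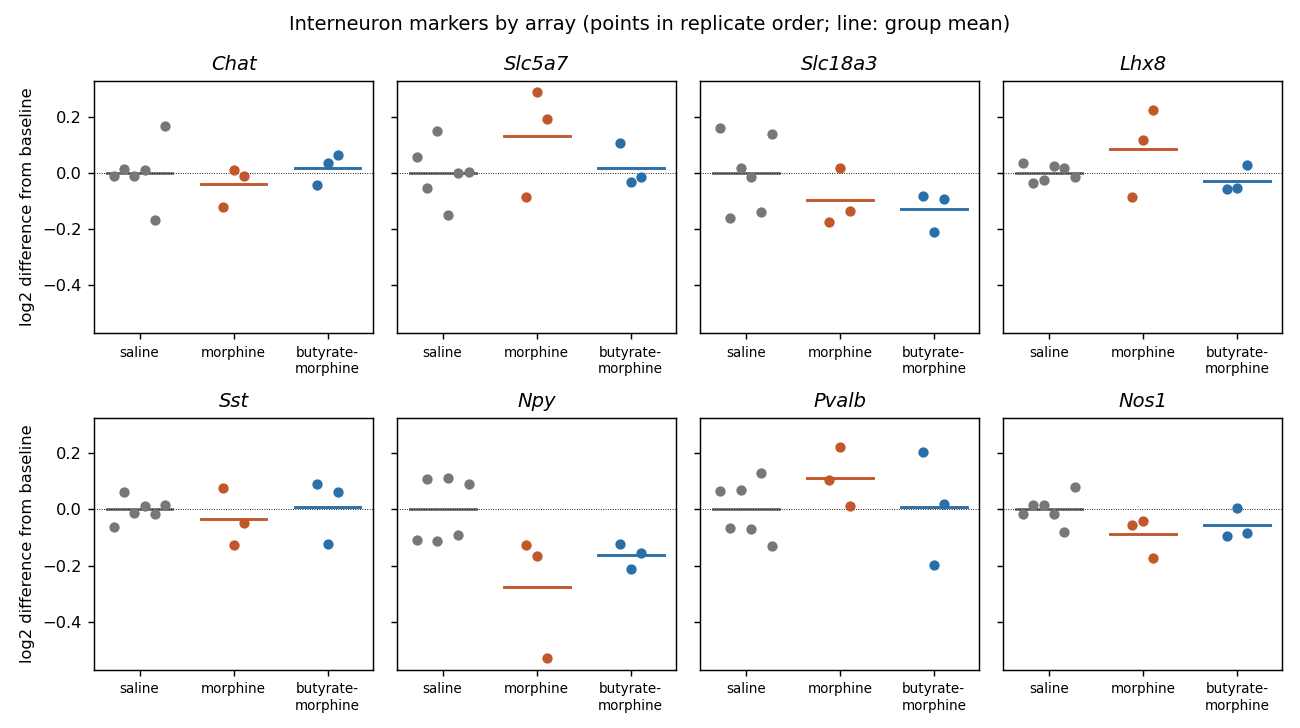
Log2 difference from the baseline (vertical axis, no unit beyond log2) of the 8 interneuron markers in each of the 12 arrays, with 1 point per array in replicate order from left to right within a group and a line at the group mean. Npy is the gene whose 6 treated arrays, from -0.531 to -0.124, all lie below its lowest saline array at -0.113, and the morphine arrays of Slc5a7 and Lhx8 spread on both sides of 0.

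The GABA markers include 3 genes found together in one cell class, the neurons that contain somatostatin, neuropeptide Y and neuronal nitric oxide synthase. Their promoter sequences are shown because the 3 genes share that class. In whole tissue the RNA of each gene may also come from other cells. No test compared the values of the 3 genes with each other. Across the arrays Npy and Nos1 had a Pearson r of 0.749, the highest of the 28 marker pairs. Sst had an r of 0.381 with Npy and -0.0734 with Nos1. Each stretch spans 250 bases before to 50 bases after the transcription start in RefSeq (GRCm38.p6), written 5′ to 3′ along the gene. The capitals mark the cAMP response element TGACGTCA, the site bound by the activity-dependent factor CREB, or its core letters TGACG read on either strand (CGTCA on the other). Sst is at chr16:23890795-23891094, minus strand, Npy at chr6:49822460-49822759, plus strand, and Nos1 at chr5:117866589-117866888, plus strand.
Sst: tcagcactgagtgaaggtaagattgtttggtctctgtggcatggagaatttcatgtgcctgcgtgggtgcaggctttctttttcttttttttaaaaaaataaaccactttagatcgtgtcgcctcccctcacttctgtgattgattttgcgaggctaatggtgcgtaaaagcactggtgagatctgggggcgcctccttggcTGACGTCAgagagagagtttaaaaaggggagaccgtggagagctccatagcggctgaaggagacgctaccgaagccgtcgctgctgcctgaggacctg
Npy: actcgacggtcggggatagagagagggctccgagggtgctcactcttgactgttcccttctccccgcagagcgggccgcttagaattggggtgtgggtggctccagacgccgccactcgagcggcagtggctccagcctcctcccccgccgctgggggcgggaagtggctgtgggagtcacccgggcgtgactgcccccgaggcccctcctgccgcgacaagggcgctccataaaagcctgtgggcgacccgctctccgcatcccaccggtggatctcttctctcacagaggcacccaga
Nos1: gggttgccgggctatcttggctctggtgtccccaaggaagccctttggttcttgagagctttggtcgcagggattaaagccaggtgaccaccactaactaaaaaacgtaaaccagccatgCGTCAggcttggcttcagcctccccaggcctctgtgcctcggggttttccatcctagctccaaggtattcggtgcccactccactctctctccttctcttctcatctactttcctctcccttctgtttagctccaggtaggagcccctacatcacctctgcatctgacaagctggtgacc
The Sst stretch holds the whole element, beginning 48 bases before the start, and the 2 core matches in it overlap inside the whole element. Nos1 holds 1 core match, beginning 130 bases before the start, and Npy holds neither in this window. Of 32851 promoter stretches of this length, 1.79% held the whole element and 20.8% the core. Sequence was found for 8 of 8 genes, and among the other 5 a core match stood in Chat and in Slc18a3. A match describes the letters and not a bound site.

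Sst encodes somatostatin, an inhibitory peptide released by low-threshold spiking interneurons. It was at 0.077, -0.128 and -0.048 in the morphine arrays and at 0.090, -0.123 and 0.064 in the butyrate-morphine arrays, and saline ran from -0.063 to 0.063. In 5 of 6 treated arrays it lay outside the saline range, 3 above and 2 below, so the arrays of a group disagreed in sign. The mean difference was -0.033 after morphine and 0.010 after butyrate-morphine, with intervals of -0.15 to 0.082 and -0.11 to 0.13. The adjusted p was 0.848 and 0.955.

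Npy encodes neuropeptide Y, a peptide transmitter that dampens release from other neurons. Its values were -0.127, -0.167 and -0.531 in morphine arrays 1 to 3 and -0.124, -0.213 and -0.154 in butyrate-morphine arrays 1 to 3. The saline arrays ran from -0.113 to 0.113, so treated and saline arrays did not overlap. Over all 21780 probe sets, 1.26% had all 6 treated arrays below all 6 saline arrays, and 3.23% were apart in either direction. Of the 8 interneuron markers, 1 was apart in this way, which is too few to read against that share.

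The Npy difference after morphine was -0.27 ± 0.085 (SE), or 0.827 of saline, with an interval of -0.46 to -0.092. Its unadjusted p was 0.00644, which 5.51% of probe sets bettered, and its adjusted p was 0.117. After butyrate-morphine it was -0.16, or 0.893 of saline, with an interval of -0.35 to 0.019 and an adjusted p of 0.353. Over both treated groups the mean difference was -0.22 (interval -0.37 to -0.070, adjusted p = 0.0959). The largest departure was in morphine array 3, and without it the morphine difference was -0.15 (adjusted p = 0.399). The mean over both groups was -0.26 and passed when morphine array 1 was left out (adjusted p = 0.0468). When each mirror pair of saline arrays counted as 1 value, the adjusted p was 0.257 after morphine and 0.202 over both groups. Both differences from saline were negative in every fit run, and over these fits the adjusted p for both groups together ran from 0.0404 to 0.48.

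Nos1 encodes neuronal nitric oxide synthase, which makes the gas transmitter nitric oxide. It stood at -0.056, -0.040 and -0.172 after morphine and at -0.094, 0.006 and -0.082 after butyrate-morphine, against -0.080 to 0.080 in saline. As for Npy, morphine array 3 was the lowest, and 3 of 6 treated arrays lay below all saline arrays. The difference was -0.089 after morphine (interval -0.18 to 0.0032, adjusted p = 0.345) and -0.057 after butyrate-morphine (adjusted p = 0.550). With morphine array 3 out the morphine difference was -0.048.

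Pvalb encodes parvalbumin, the calcium buffer of fast-spiking interneurons. Morphine arrays gave 0.104, 0.224 and 0.012 and butyrate-morphine arrays 0.206, -0.199 and 0.020, with saline from -0.132 to 0.132. It was above 0 in 5 of 6 treated arrays, with 2 above and 1 below all saline arrays. The butyrate-morphine SD of 0.20 was the largest of the 8 genes in that group. The morphine difference was 0.11 (interval -0.064 to 0.29, adjusted p = 0.577) and the butyrate-morphine difference was 0.0090 (adjusted p = 0.974). The morphine difference was 0.058 with morphine array 2 out and 0.16 with morphine array 3 out.

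Morphine given without butyrate was set against saline first. Limma called 0 of 8 interneuron markers, where 2.45% of all probe sets were called. At an unadjusted p under 0.05 the count was 1 of 8 (Npy), beside 15.4% of all probe sets. Of the 8 genes 3 were higher and 5 lower, with a median of -0.037 against -0.0033 over all probe sets. In the direction lower, groups did not overlap for 1 of 8, beside 4.17% of all probe sets (8.09% in either direction). The 95% intervals reached 0.092 to 0.18 to each side, so differences smaller than that were not resolved by these arrays. The fit counted 6 saline values where mirror pairs leave 3, so these intervals are likely too narrow.

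Butyrate-morphine was then set against the same saline arrays. Limma called 0 of 8 markers, where 2.35% of all probe sets were called, and 0 of 8 had an unadjusted p under 0.05, beside 17.2% of all. The genes split 4 higher and 4 lower, with a median of -0.0093 against 0.0071 over all probe sets. Groups did not overlap for 1 of 8 (Npy, lower), beside 4.57% of all probe sets in that direction and 11.8% in either. Both comparisons shared the 6 saline arrays, so their values are not independent.

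The third comparison set butyrate-morphine against morphine. No group received butyrate without morphine, so a changed response to morphine and an effect of butyrate by itself cannot be told apart. Limma called 0 of 8 markers, beside 0% of all probe sets (0 of 21780), and groups did not overlap for 0 of 8, beside 10.8% of all. An unadjusted p under 0.05 was seen for 0 of 8 and for 8.71% of all. The widest differences were -0.11 for Slc5a7 (interval -0.31 to 0.081), -0.11 for Lhx8 (-0.25 to 0.024) and 0.11 for Npy (-0.10 to 0.32). With single arrays left out these ran from -0.22 (morphine array 1 out) to -0.035 (morphine array 2 out) for Slc5a7 and from -0.20 (morphine array 1 out) to -0.042 (morphine array 3 out) for Lhx8. Chat, which makes the transmitter, differed by 0.059 (-0.087 to 0.21). The Npy values of both treated groups overlapped, and without morphine array 3 the difference turned to -0.017. In the fourth comparison, the mean of both treated groups against saline, 0 of 8 were called beside 4.46% of all probe sets, with 1 of 8 (Npy) at an unadjusted p under 0.05 beside 19.1% of all.

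**Figure D2:**
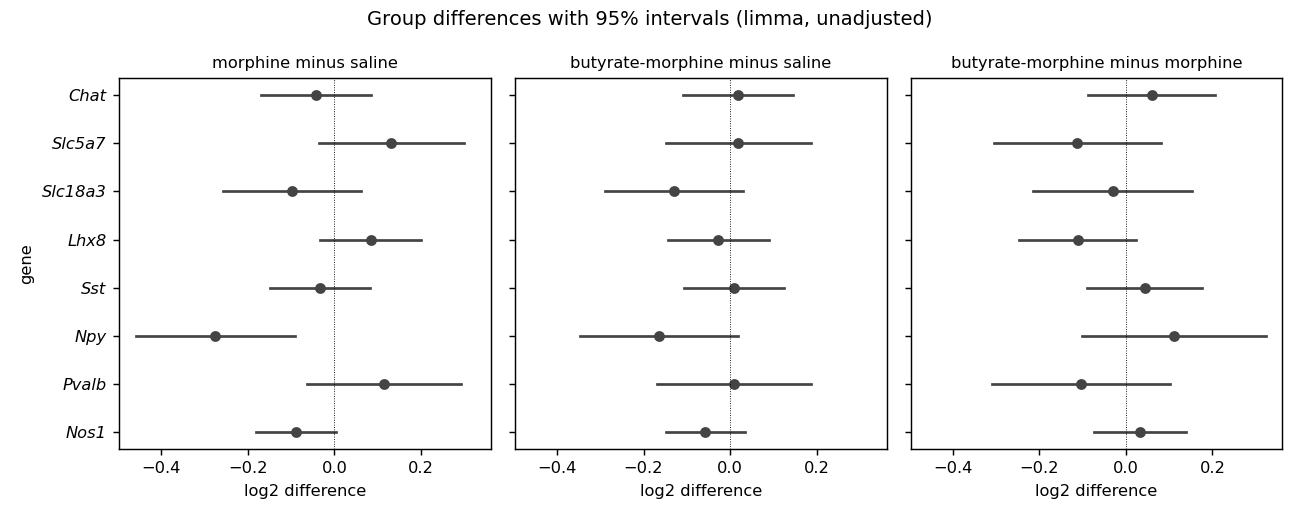
Log2 difference between groups (horizontal axis) with its 95% interval, unadjusted, from the limma fit over all 12 arrays, for each of the 8 markers (vertical axis) in 3 comparisons. The one interval that leaves out 0 is that of Npy after morphine, from -0.46 to -0.092.

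The cholinergic markers lay on one side of 0 in morphine array 1 and on the other in morphine array 2. In morphine array 1 all 4 were below 0, and their mean was -0.118. In morphine array 2 all 4 were above 0, with a mean of 0.107, and in morphine array 3 the mean was 0.067. The butyrate-morphine means were -0.020, -0.066 and -0.0039, and saline means ran from -0.073 to 0.073. Other genes of cholinergic neurons, averaged without these 4, had the same order, at -0.060, 0.091 and 0.077 in morphine arrays 1 to 3.

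Markers of tissue beside the striatum differed between the same arrays. Markers of the basal forebrain and pallidum, which hold cholinergic and parvalbumin neurons of their own, averaged -0.080, 0.284 and 0.258 in morphine arrays 1 to 3 and 0.0052, -0.122 and 0.070 in the butyrate-morphine arrays (5 genes, without Lhx8 and Pvalb). Much of that mean was Zic1, a factor of septal and thalamic cells also on the list given next, at 0.68 after morphine, while Gbx1, Nkx2-1 and Ngfr were at 0.024, -0.035 and -0.019. Over the 4 genes without Zic1 the means were -0.147, 0.166 and 0.044 in the morphine arrays and -0.135, -0.132 and -0.073 in the butyrate-morphine arrays. None of the 7 in the whole list passed in either comparison with saline, and the saline means of the 5 ran from -0.044 to 0.044. With morphine array 1 out, 2 of the 7 rose after morphine, and with morphine array 2 out, 1 fell after butyrate-morphine. Over all 21780 probe sets, fits with 1 array left out called 219 to 1092 after morphine and 206 to 807 after butyrate-morphine. Between the treated groups they called 0 to 27. List counts from such fits, here and below, are not set beside the share of the same fit and are description only. Thalamic and septal markers averaged 0.088, 0.538 and 0.647 in the morphine arrays and 0.489, -0.070 and 0.244 in the butyrate-morphine arrays, with 3 of 8 called higher after morphine and 0 of 8 after butyrate-morphine, beside 2.45% and 2.35% of all probe sets called. The 3 were Calb2, which is counted again among the GABA interneuron markers below, Trpc4 and Slc17a6. With single arrays left out the count after morphine was 1 (morphine array 3 out), 4 (morphine array 1 out), or 2 (morphine array 2, butyrate-morphine array 3 or any saline array out), and 1 passed after butyrate-morphine with morphine array 3 out. Cortical excitatory neuron markers averaged 0.146, -0.629 and -0.248 in the morphine arrays and -0.026, 0.132 and -0.0036 in the butyrate-morphine arrays, with 0 of 7 called in either comparison. With morphine array 1 out, 4 were called lower after morphine, and with butyrate-morphine array 3 out, 1 was called higher after butyrate-morphine. Summed over the 7, the cortical list ran from -4.40 to 1.03 after morphine, from -0.183 to 0.923 after butyrate-morphine and from -0.294 to 0.294 in saline. The cortex has its own interneurons with Sst, Npy and Pvalb. The part of neighbouring tissue in the marker values was not tested.

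**Figure D3:**
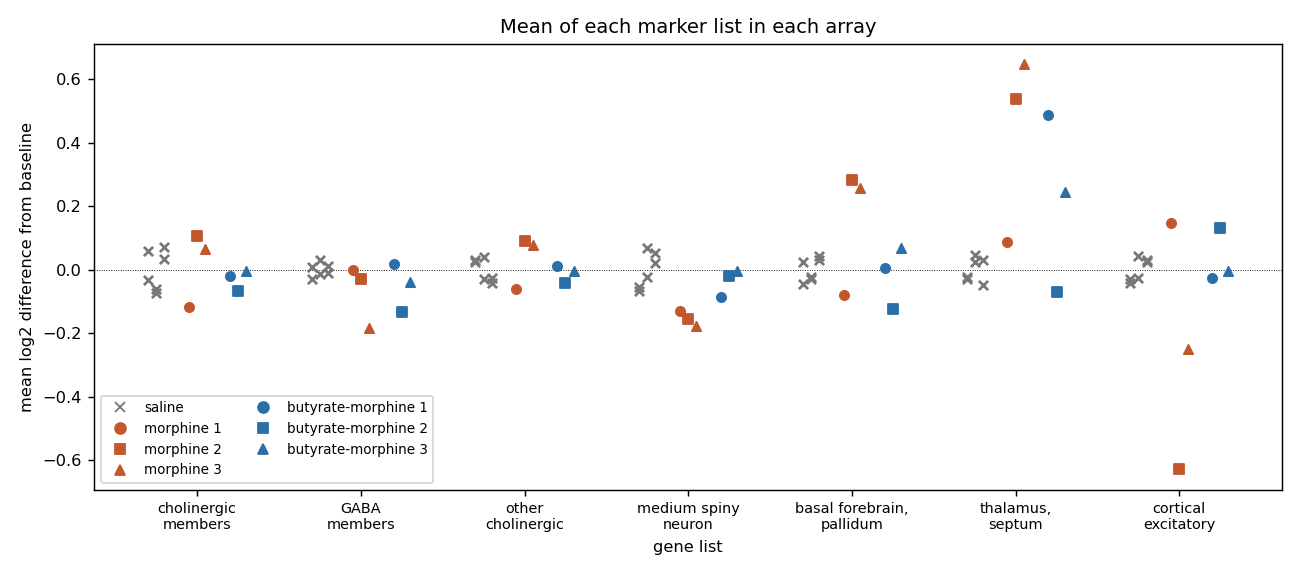
Mean log2 difference from the baseline (vertical axis) over each marker list (horizontal axis) in each array, with crosses for the 6 saline arrays and a circle, square and triangle for replicates 1, 2 and 3 of each treated group. Morphine array 1 lies apart from morphine arrays 2 and 3 in the cholinergic, basal forebrain, thalamic and cortical lists, for example at -0.118 against 0.107 and 0.067 for the cholinergic markers.

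The GABA markers did not all lie on one side of 0 in any treated array. Their mean was -0.00053, -0.028 and -0.185 in morphine arrays 1 to 3 and 0.019, -0.132 and -0.038 in the butyrate-morphine arrays, against -0.030 to 0.030 in saline. Npy set most of the value in morphine array 3, and Npy, Pvalb and Sst together that in butyrate-morphine array 2. Medium spiny neuron markers, the main cells of the tissue, averaged -0.129, -0.155 and -0.177 after morphine and -0.086, -0.019 and -0.0044 after butyrate-morphine. Of 10 measured, 3 fell after morphine (Drd2, Gpr52 and Pde10a, a dopamine receptor, an orphan receptor and a phosphodiesterase of these cells) and 0 after butyrate-morphine, beside 2.45% and 2.35% of all probe sets called. The falls were 0.16, 0.28 and 0.17. Without 1 array at a time 0 to 3 fell after morphine, with 0 without morphine array 3 or saline arrays 2, 3, 4 or 5 and 1 without saline array 6. In these 12 fits Drd2 ran from -0.17 to -0.14, Gpr52 from -0.31 to -0.24 and Pde10a from -0.19 to -0.14, so the sizes moved little where the calls were lost. Without saline array 1, 1 fell after butyrate-morphine.

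The calls in the lists described here depended on how the saline arrays were counted. Over all lists other than the choroid plexus one, 9 genes were called in a comparison with saline (Dlx1, Calb2, Chrm1, Sstr4, Drd2, Gpr52, Pde10a, Trpc4 and Slc17a6). With each mirror pair counted as 1 value, Dlx1 alone of the 9 was called (adjusted p = 0.0317 after morphine and 0.0412 after butyrate-morphine).

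Genes around acetylcholine were mostly without calls. Among 12 probe sets of 11 other cholinergic neuron genes, 0 were called in each of the first 3 comparisons. The shares over all probe sets were 2.45%, 2.35% and 0%. The median of the list was 0.025 after morphine and -0.032 after butyrate-morphine. The lowest p in that list was for Ngfr, the low-affinity neurotrophin receptor of basal forebrain cholinergic neurons, at -0.22 after butyrate-morphine (adjusted p = 0.0782) and -0.019 after morphine. Tacr1, the substance P receptor, was at -0.11 after butyrate-morphine (adjusted p = 0.216). Without morphine array 2, 1 gene of the list fell after butyrate-morphine. The acetylcholine-degrading enzyme Ache was at 0.044 after morphine and 0.054 after butyrate-morphine. The transcription factor Isl1 was at 0.056 and -0.042, and the glutamate transporter Slc17a8, which these neurons carry, at 0.0059 and 0.11.

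On the receiving side, 1 of 14 muscarinic and nicotinic receptor genes fell after morphine and 0 of 14 changed after butyrate-morphine, beside 2.45% and 2.35% of all probe sets. Chrm1, the main excitatory muscarinic receptor of projection neurons, was at -0.082, -0.408 and -0.352 in morphine arrays 1 to 3 and fell by 0.28 (adjusted p = 0.0468), beside -0.210, 0.0093 and -0.021 in the butyrate-morphine arrays. The adjusted p was close to the threshold. With 1 array left out Chrm1 ran from -0.38 to -0.22 and passed in 2 of 12 fits, with replicate 1 of morphine or replicate 1 of butyrate-morphine out (adjusted p up to 0.184). Chrm4, the inhibitory muscarinic receptor, was at -0.23 after morphine (adjusted p = 0.105). With morphine array 1 out, 2 receptor genes of the list fell.

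Transcription factors of interneuron lineages gave 1 call among 12 probe sets in each comparison with saline. The shares over all probe sets were 2.45% after morphine and 2.35% after butyrate-morphine. Dlx1, a homeobox factor of forebrain GABA neurons, was at 0.272, 0.260 and 0.494 in the morphine arrays and at 0.361, 0.283 and 0.319 in the butyrate-morphine arrays, all above the saline range of -0.092 to 0.092. It rose by 0.34 after morphine (1.27-fold, adjusted p = 0.00604) and by 0.32 after butyrate-morphine (1.25-fold, adjusted p = 0.00850). It passed in 12 of 12 fits with 1 array left out after morphine and in 11 of 12 after butyrate-morphine, missing without butyrate-morphine array 1 (adjusted p = 0.0572). With quantile normalization its differences were 0.25 in both comparisons and did not pass (adjusted p = 0.214 and 0.152). The median over the 12 probe sets of this list was -0.068 after morphine and -0.043 after butyrate-morphine, so Dlx1 stood on the other side of 0 from most of the list. Without morphine array 2, 1 further member fell after morphine, and without morphine array 1, 1 fell after butyrate-morphine.

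Other GABA interneuron markers gave 1 rise after morphine among 16 and 0 calls after butyrate-morphine, beside 2.45% and 2.35% of all probe sets. The gene was Calb2, calretinin, a calcium buffer of a separate interneuron class that also marks thalamic and septal cells. It rose by 0.94 after morphine (adjusted p = 0.0193), with array values of 0.444, 0.832 and 1.55, and was at 0.483, 0.233 and 0.852 in the butyrate-morphine arrays. With morphine array 1 out, 2 of the 16 fell as well, with butyrate-morphine array 1 out 2 of them rose, and with morphine array 3 out Calb2 passed after butyrate-morphine (adjusted p = 0.0345). Without butyrate-morphine array 1, 1 of the 16 was lower in butyrate-morphine than in morphine. The medians of the list were -0.012 and -0.00066.

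GABA synthesis and transport genes gave 0 calls among 5 in either comparison with saline, beside 2.45% and 2.35% of all probe sets. The lowest p-values were for Gad2, which makes GABA at terminals (0.14 after morphine, adjusted p = 0.281), and the GABA transporter Slc6a11 (0.23, adjusted p = 0.382). With morphine array 1 out, 2 of the 5 rose. Receptors for somatostatin and neuropeptide Y gave 1 fall among 8 after morphine and 0 calls after butyrate-morphine, beside the same shares. Sstr4, a somatostatin receptor, fell by 0.34 (adjusted p = 0.0458), with array values of -0.090, -0.589 and -0.328 after morphine and -0.227, -0.283 and -0.206 after butyrate-morphine, while saline ran from -0.066 to 0.066. Its morphine difference was -0.46 with morphine array 1 out and -0.21 with morphine array 2 out. With 1 array left out it passed after morphine in 1 of 12 fits, that without morphine array 1 (adjusted p up to 0.131), and after butyrate-morphine in 2, those without morphine array 1 or 2. The neuropeptide Y receptors Npy1r and Npy2r were at -0.26 and 0.25 after morphine and did not pass (adjusted p = 0.11 and 0.114), and with morphine array 1 out the list gave 1 rise beside 1 fall. Nitric oxide signalling genes gave 0 calls among 13 probe sets in either comparison with saline, beside the same shares. The phosphodiesterase Pde1b was at -0.15 after morphine (adjusted p = 0.0770) and endothelial Nos3 at -0.20 after butyrate-morphine (adjusted p = 0.0981). With morphine array 1 out, 1 of the 13 fell after morphine.

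In the direct comparison of butyrate-morphine with morphine, none of these lists held a call over all 12 arrays, and the lists share that with the table as a whole. Medium spiny neuron markers had a median of 0.12 and were higher in 10 of 10 probe sets, beside 57.0% of all probe sets. Lists of neighbouring tissue were as one-sided. Cortical excitatory neuron markers were higher in 7 of 7, with a median of 0.26. Thalamic and septal markers were lower in 7 of 8, basal forebrain and pallidal markers in 7 of 7 and choroid plexus markers in 9 of 9. The part of neighbouring tissue in these shifts was not tested. Nitric oxide signalling genes were higher in 12 of 13 with a median of 0.053, and other cholinergic neuron genes were lower in 8 of 12 with a median of -0.043. The median over all probe sets was 0.011.

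The genes whose array pattern was most like each marker were sought over 19240 named probe sets by Pearson correlation across the 12 arrays, which hold at most 9 independent values. These are the highest of many correlations and serve as a description. For Npy they were Coch (r = 0.960), the metalloprotease gene Adamts8 (0.955) and Slc35d3 (0.954), and 0.769% of the probe sets exceeded 0.8. For Lhx8 they were the serotonin receptor gene Htr4 (0.933), Prmt2 (0.922) and Ecel1 (0.909), itself on the basal forebrain and cholinergic lists, and for Slc5a7 the Wnt receptor gene Fzd8 (0.946), Gad2 (0.934) and Stambpl1 (0.933). Chat was nearest to Prr23a3 (0.938), Gde1 (0.932) and Slc4a3 (0.927), and Slc18a3 to Krt78 (0.955), Dhrs13os (0.945) and Itgad (0.937). Sst was nearest to the histone gene H3c15 (0.891), Dnajc13 (0.882) and Ppig (0.880), Pvalb to Serpinf1 (0.893), Rims3 (0.885) and Nkain3 (0.879), and Nos1 to Pradc1 (0.918), Sh2d5 (0.918) and Tmem205 (0.914).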

How the data were processed

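The authors deposited a table of 28815 probe set rows for 12 arrays. The deposited log2 values (base assumed) had been centred on a baseline by the authors, as the mirrored saline arrays show. Per the labels' protocols each array held RNA pooled from 4 animals. The sources used here do not give the background correction, normalization or log base. Gene symbols came from the platform's annotation (21780 with 1 symbol, 1605 with several, 5430 with none). Limma 3.58.1 (R 4.3.3; lmFit, eBayes) estimated 3 group means over all 12 arrays, with Benjamini-Hochberg adjustment over the 21780 probe sets and a threshold of 0.05. Residual degrees of freedom were 9, prior ones 3.87, and the median residual SD was 0.0743. The fit counts 6 saline values where mirror pairs leave 3, which understates the spread.

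The fit was tested on simulated data with mirrored saline arrays. In 5 runs of simulated morphine against saline it recovered 72.8% of 1.2-fold changes, 97.3% of 1.5-fold and 100% of 2-fold. Of its calls, 5.96% were false. Named genes were the 8 markers, the listed genes past the threshold or with the lowest p-values, and for each marker the 3 most similar probe sets. Ache, Isl1, Slc17a8, Chrm4, Npy1r, Npy2r, Gbx1 and Nkx2-1 were named outside this rule, after their values were seen. For the cortical list the rule gave Rorb (0.26 after butyrate-morphine, adjusted p = 0.0833) and Neurod6 (-0.53 after morphine, adjusted p = 0.112). The choroid plexus genes were given as counts and means only. The markers and lists were chosen with earlier results of these data known. The labels call the pools biological replicates; p-values rest on variation among pools, and precision is limited by how many arrays there are. Of 9 pairs of arrays with the same replicate number, 1 had deviations that correlated above 0.1 (range -0.267 to 0.202). Because the saline arrays came centred as mirror pairs, this check cannot exclude blocks. The labels state no block, so the numbers were not treated as pairs.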

Additional observations from a re-analysis of the deposited data

How the results depend on the processing

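The marker values and counts, and the list counts and called list genes (chosen for this after seeing the data, without the other thresholds), were recomputed under quantile normalization, array medians set to 0, all rows, 1 value per gene, the 5361 probe sets whose rounding places the stored value at 8 or above (Sst, Npy and Pvalb among the markers), array weights, a robust eBayes with trend, a fit on the compared groups alone, the replicate block, either 3 saline arrays, mirror pairs counted once, other thresholds and each array left out. Taking both treated groups as 1 was chosen after seeing the data. The count of markers called stayed at 0 in the first comparison outside the fits with an array left out, and at 0 throughout after butyrate-morphine and between the treated groups. For the mean of both treated groups it was 1 with array weights (Npy, adjusted p = 0.0404) and 1 at a threshold of 0.1. With 1 array left out it ran from 0 to 1 after morphine and from 0 to 1 over both treated groups. Of 812 recomputed marker values, 28 turned sign, none of them called, and the cause was not tested. After butyrate-morphine, Slc5a7 turned to -0.031 and Pvalb to -0.014 with the replicate block. With saline arrays 1 to 3 the values were the same, -0.031 and -0.014. Treated arrays carry replicate numbers 1 to 3 only, so saline arrays with higher numbers share no block with a treated array. The block and saline arrays 1 to 3 are therefore not separate checks on the size of a difference from saline. The block also does not follow the mirror pairs. The replicate block left 0 of 8 markers called. With 1 array left out, values that turned ran as follows. After butyrate-morphine they were -0.016 to 0.051 for Chat, -0.024 to 0.049 for Slc5a7, -0.030 to 0.077 for Sst and -0.089 to 0.11 for Pvalb. Sst ran from -0.088 to 0.014 after morphine. Butyrate-morphine against morphine ran from -0.070 to 0.027 for Slc18a3, -0.0041 to 0.11 for Sst, -0.017 to 0.18 for Npy and -0.0092 to 0.057 for Nos1. Over both treated groups the ranges were -0.045 to 0.021 for Chat, -0.039 to 0.022 for Sst and -0.0066 to 0.071 for Lhx8. The directions of the 9 called list genes did not change in the comparisons with saline, and their calls did. After morphine, quantile normalization left Calb2 called among them and the replicate block Trpc4. Dlx1 passed in 7 of 11 of these settings after morphine (adjusted p 0.00518 to 0.214) and in 7 of 11 after butyrate-morphine (0.00307 to 0.187), missing with quantile normalization, the replicate block and either 3 saline arrays. Over all probe sets, the 534 after morphine became 70 with quantile normalization (56 higher and 14 lower, against 284 and 250), 49 with the replicate block, 146 with mirror pairs counted once and 219 to 1092 with 1 array left out. The 512 after butyrate-morphine became 97, 38, 171 and 206 to 807 in the same order, and the 972 over both treated groups ran from 72 (replicate block) to 1751 (threshold of 0.1).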
